A study of Rattus norvegicus with 24 samples.

Results

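Axon guidance ligands and receptors are described here as a group of 67 genes, out of 37403 genes listed for each brain region. They were chosen by symbol alone, as the semaphorins (20 genes), plexins (9), EphA receptors (9), EphB receptors (5), ephrin-A ligands (5), ephrin-B ligands (3), roundabouts (4) and slits (3), together with Ntn1, Ntn4, the netrin receptors Dcc and Unc5a to Unc5d, and the neuropilins Nrp1 and Nrp2. RNA was sequenced from bilateral tissue punches of adult rats, the first-generation offspring of fathers that had self-administered morphine (MOR-sired) or saline (SAL-sired) for 60 days. The offspring were at postnatal day 60 or older, were described as male, and are not stated to have received any drug. The nucleus accumbens (NAC), a striatal region that receives dopamine, gave 7 libraries from SAL-sired and 7 from MOR-sired rats. The ventral tegmental area (VTA), a midbrain region with dopamine neurons that project to the NAC, gave 5 and 5. A punch holds all cell types of the region, so fewer cells of a type and less RNA per cell cannot be told apart. The labels call the libraries biological replicates and name no animal or litter, and the p-values below take the spread between them as the error.

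Guidance cues steer growing axons by attraction or repulsion. Netrins attract through Dcc and repel through Unc5 receptors, and slits repel through roundabouts. Semaphorins act through plexins, for most class 3 semaphorins together with a neuropilin. Ephrins are bound to the cell surface and signal through Eph tyrosine kinase receptors, with ephrin-A ligands held by a lipid anchor and ephrin-B ligands spanning the membrane. Many of these genes stay active in the adult brain, where they are known for roles in synapse structure and plasticity, and Ntn1 with Dcc is known for its part in laying out the dopamine projections of the midbrain.

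Library totals ran from 21.9 M to 41.3 M (M, 1000000) estimated counts in NAC and from 23.6 M to 43.5 M in VTA. Levels are given as CPM, counts per 1000000 counts of the library, and levels are compared between genes on the reading that the deposited counts were scaled from length-corrected abundances (TPM), which rests on how the tables are named. Tyrosine hydroxylase (Th), needed to make dopamine, lay between 1293 and 2881 CPM in VTA and at or below 1.87 CPM in NAC, and Drd1, a dopamine receptor of striatal neurons, lay between 18.6 and 246 CPM in NAC and at or below 1.75 CPM in VTA. The NAC punches also held Slc17a7, a glutamate transporter gene typical of cortex, at 111 to 1366 CPM. Against the label, 4 VTA libraries (SAL-sired VTA 5 and MOR-sired VTA 3, 4 and 5) held Xist, the RNA that coats an inactive X, at 78.9 to 108 CPM with the Y-linked Ddx3y at or below 0.0720 CPM. The other 20 libraries had Xist at or below 0.253 CPM and Ddx3y between 28.7 and 57.5 CPM. VTA results are therefore also given without those 4 libraries where a call or value moved. Such fits keep only MOR-sired VTA 1 and 2, beside SAL-sired VTA 1 to 4. Sex as read from these transcripts was thus uneven between the VTA sire groups, and fits without those libraries are imprecise.

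The promoters of 4 members that separated the regions are shown because they range from CG-rich to CG-poor. Each line is the 250 bases before the RefSeq start of the gene in assembly GRCr8, 5′ to 3′ on the plus strand, with CG dinucleotides in capitals. Efnb2 (chr16:87484965-87485214) and Epha7 (chr5:47771643-47771892) were far higher in NAC, while Sema6d (chr3:132337106-132337355) and Plxnb3 (chrX:156646624-156646873) were higher in VTA.
Efnb2: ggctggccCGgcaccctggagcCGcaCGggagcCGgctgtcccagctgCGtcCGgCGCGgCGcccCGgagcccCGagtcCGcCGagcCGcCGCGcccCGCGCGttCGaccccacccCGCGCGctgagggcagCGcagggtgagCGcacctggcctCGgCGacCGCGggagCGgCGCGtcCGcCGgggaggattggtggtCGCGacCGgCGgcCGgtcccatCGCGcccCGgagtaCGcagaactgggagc
Epha7: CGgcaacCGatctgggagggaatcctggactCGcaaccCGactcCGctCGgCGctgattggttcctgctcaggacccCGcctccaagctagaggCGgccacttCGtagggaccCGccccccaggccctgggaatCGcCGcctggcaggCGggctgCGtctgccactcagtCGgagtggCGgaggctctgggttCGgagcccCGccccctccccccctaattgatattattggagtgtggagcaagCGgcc
Sema6d: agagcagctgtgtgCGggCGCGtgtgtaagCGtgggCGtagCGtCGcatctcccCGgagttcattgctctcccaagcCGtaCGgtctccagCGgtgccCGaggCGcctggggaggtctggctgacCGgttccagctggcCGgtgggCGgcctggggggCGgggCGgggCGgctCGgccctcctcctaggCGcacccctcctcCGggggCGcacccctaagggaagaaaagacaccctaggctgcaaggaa
Plxnb3: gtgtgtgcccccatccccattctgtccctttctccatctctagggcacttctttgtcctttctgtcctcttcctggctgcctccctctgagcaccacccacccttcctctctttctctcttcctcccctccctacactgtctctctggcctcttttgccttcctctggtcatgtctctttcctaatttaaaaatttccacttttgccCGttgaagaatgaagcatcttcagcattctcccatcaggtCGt

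The Efnb2 window holds 43 CG dinucleotides and a GC content of 80.4%, the Sema6d window 23 and 70.4%, the Epha7 window 20 and 67.6%, and the Plxnb3 window 2 and 50.8%. A window was listed for 52 of the 67 members. Their median was 14 CG dinucleotides and a GC content of 62.2%, beside 5 and 51.2% over all 33465 RefSeq windows of that length. On either strand, GGGCGG occurred in 29 of the 52 windows (55.8%, beside 30.5% of all windows), including Epha7 and Sema6d but neither Efnb2 nor Plxnb3. TATAAA occurred in 0 of the 52 (12.9% of all), CACGTG in 3 (5.8%, beside 5.6%) and TGACGTCA in 1 (1.9%, beside 1.6%). GGGCGG holds a CG itself, so its count moves with the CG content, and a match of letters is a description of the window only.

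Most members were readily detected in both regions. In NAC 49 members averaged at least 10 CPM and 3 (Epha1, Epha2 and Robo3) averaged under 1 CPM, and in VTA these numbers were 38 and 3 (Efna4, Epha1 and Sema3a). The highest mean level in NAC was that of the ephrin-B ligand Efnb3 (109 ± 11.6 CPM, SD, n = 14), followed by the semaphorins Sema6b (85.9 ± 7.05 CPM) and Sema7a (85.3 ± 16.2 CPM), the netrin receptor Unc5a (73.3 ± 19.4 CPM) and Efnb2 (69.4 ± 11.5 CPM). Efnb3 exceeded Sema6b in 13 of the 14 libraries, whereas Sema6b exceeded Sema7a in 6 and Unc5a exceeded Efnb2 in 8, so the order of those neighbours did not hold beyond their spread. In VTA the order was led by the semaphorin Sema4d (115 ± 13.2 CPM, n = 10), above Sema6d (89.9 ± 10.7 CPM) in all 10 libraries. Sema6d and the netrin Ntn1 (87.6 ± 17.8 CPM) were close, with Sema6d the higher in 6 of 10.

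The members differed between the regions in both directions, and more often with the higher level in NAC. The threshold for a call was an adjusted p of 0.05 in edgeR's quasi-likelihood test with Benjamini-Hochberg adjustment over all 20603 genes kept, and positive log2 fold changes mean higher in VTA. In SAL-sired libraries 47 of the 67 members were called, 18 higher and 29 lower in VTA, where 58.7% of all genes were called (29.0% higher and 29.7% lower). In MOR-sired libraries, which are separate from the first, 49 were called, 20 higher and 29 lower, beside 58.2% of all genes (27.8% higher and 30.4% lower). In both sire groups 18 members were called higher in VTA (23.9% of all genes) and 28 lower (26.7% of all genes). The members' share called higher was thus near that of all genes, and the share called lower was above it. Members had a median log2 fold change of -0.33 (SAL-sired) and -0.25 (MOR-sired), beside 0.03 and -0.00 over all genes. The tables of the regions were deposited separately, so region and library set cannot be told apart.

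**Figure D1:**
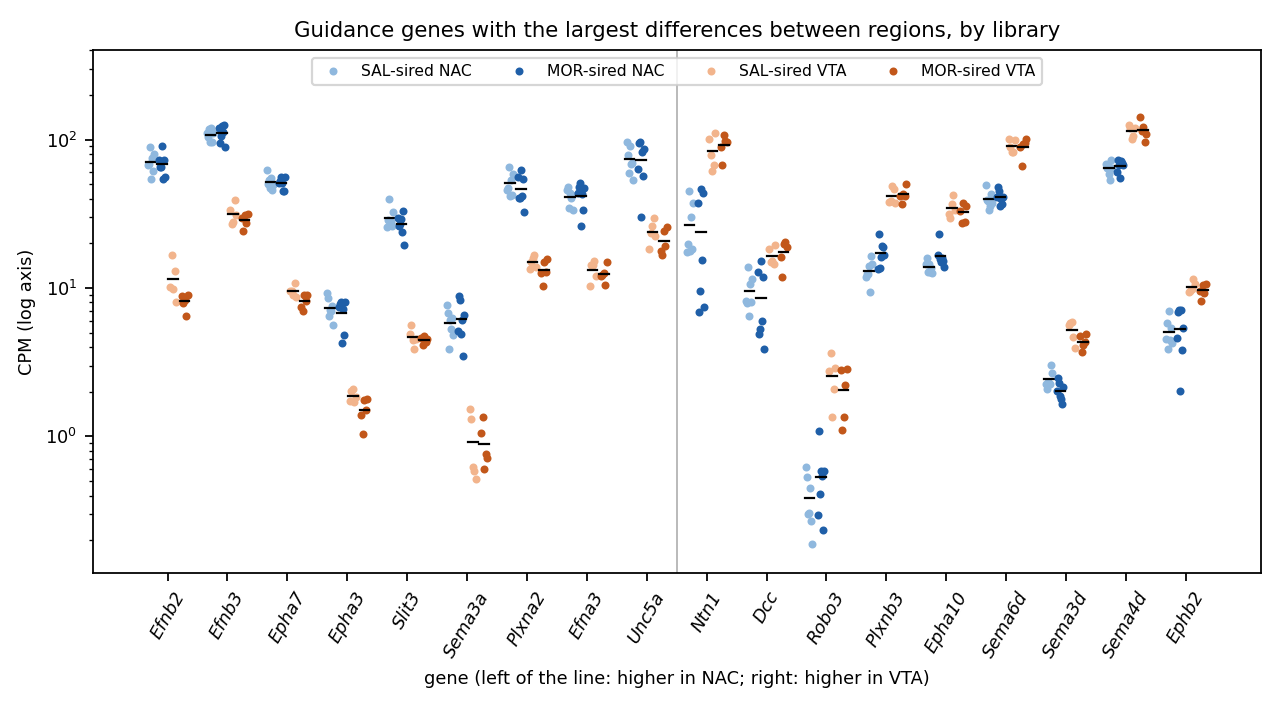
CPM on a log axis in each library for 18 members with large region differences; points are libraries, short lines are group means, and colours are the 4 groups. To the left of the vertical line the NAC points sit above the VTA points, and to its right the VTA points sit higher, with overlap between regions in Dcc; the sire groups of a region overlap in every gene shown.

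All 3 ephrin-B ligands were lower in VTA. Their summed level was 191 ± 20.2 CPM in NAC (SD, n = 14, lowest 159, highest 224) and 47.4 ± 6.27 CPM in VTA (n = 10, 37.6 to 58.2). Efnb2 had a lowest, median and highest level of 53.9, 68.4 and 88.7 CPM in SAL-sired NAC, and of 54.6, 65.4 and 90.5 CPM in MOR-sired NAC. In VTA it stood at 10.1, 16.7, 9.89, 13.1 and 8.07 CPM in the SAL-sired libraries and at 8.84, 7.94, 8.32, 6.47 and 8.97 CPM in the MOR-sired ones. The lowest NAC library was thus far above the highest VTA library. The fitted NAC level was 6.54 times the VTA level in SAL-sired libraries (95% interval 5.17 to 8.26) and 8.29 times in MOR-sired libraries (6.52 to 10.5), with log2 fold changes of -2.71 (SE 0.16, SAL-sired) and -3.05 (SE 0.17, MOR-sired). Efnb3 was 3.61 times and 3.78 times higher in NAC, also with no overlap between regions. The X-linked Efnb1 was 1.87 times and 1.82 times higher in NAC, but its regions overlapped, since SAL-sired VTA 1 held 11.2 CPM and the lowest NAC library 10.6 CPM.

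Ephrin-A ligands followed the same direction in 4 of 5 genes (Efna2, Efna3, Efna4 and Efna5), with Efna1 the exception. Efna3 lay between 26.1 and 51.1 CPM in NAC and between 10.2 and 15.3 CPM in VTA, a NAC level 3.33 times the VTA level in SAL-sired libraries. Among the EphA receptors, Epha3, Epha4 and Epha7 were lower and Epha1 and Epha10 higher in VTA in both sire groups. Epha7, a receptor for ephrin-A ligands, had a lowest, median and highest level of 45.7, 50.5 and 62.2 CPM in SAL-sired NAC and of 44.8, 51.3 and 55.9 CPM in MOR-sired NAC. Its levels in VTA were 9.59, 9.56, 8.95, 10.8 and 8.72 CPM in SAL-sired and 7.48, 7.03, 8.94, 8.15 and 8.99 CPM in MOR-sired libraries. The regions did not overlap and Epha7 varied little within each. Its log2 fold changes, for SAL-sired and then MOR-sired libraries, came to -2.54 and -2.63 (SE 0.09 for each, adjusted p = 4.23e-16 and 2.36e-16 in edgeR). Epha3, at 4.24 to 9.28 CPM in NAC and 1.04 to 2.08 CPM in VTA, had -2.06 (SE 0.17) and -2.16 (SE 0.17). Epha4, a receptor for both ephrin classes, had -0.98 (SE 0.19) and -0.77 (SE 0.19). Epha10, an Eph receptor without kinase activity, stood at 12.7 to 23.0 CPM in NAC and 27.6 to 42.0 CPM in VTA, with log2 fold changes of 1.24 (SE 0.10, SAL-sired) and 0.99 (SE 0.10, MOR-sired). Epha8 passed the test only in MOR-sired libraries (log2 fold change -1.80, SE 0.55, adjusted p = 0.00761 in edgeR) and had -1.13 (SE 0.54, adjusted p = 0.0760) in SAL-sired ones; without the libraries that held Xist the MOR-sired value was -1.83 with an adjusted p of 0.108. Of the EphB receptors, which bind mainly ephrin-B ligands, Ephb2 and Ephb4 were higher and Ephb6 lower in VTA, while Ephb1 and Ephb3 passed in neither sire group. Ephb2 stood at 2.01 to 7.16 CPM in NAC and 8.22 to 11.6 CPM in VTA, with 0.92 (SE 0.22) and 0.88 (SE 0.22). Ephb6, a receptor without kinase activity, stood at 20.9 to 46.3 CPM in NAC and 18.8 to 24.6 CPM in VTA.

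Of the netrins, Ntn1 was higher in VTA and Ntn4 was not called. Ntn1 in SAL-sired NAC had a lowest, median and highest level of 17.5, 19.7 and 45.1 CPM, and in MOR-sired NAC of 6.87, 15.3 and 46.8 CPM. In VTA its levels were 101, 79.2, 61.3, 67.6 and 110 CPM in SAL-sired and 88.6, 67.3, 108, 97.2 and 96.2 CPM in MOR-sired libraries. All VTA libraries lay above all NAC libraries, although the NAC libraries alone spanned 6.81-fold. The log2 fold changes were 1.57 (SE 0.40, adjusted p = 0.00186 in edgeR) and 1.97 (SE 0.40, adjusted p = 0.000230). Ntn4 passed in neither sire group (0.08, SE 0.22, and 0.33, SE 0.22). Dcc, the attractive netrin receptor, lay between 3.86 and 15.2 CPM in NAC and between 11.9 and 20.4 CPM in VTA, so the regions overlapped. Its log2 fold changes were 0.71 (SE 0.27, adjusted p = 0.0265) and 1.05 (SE 0.27, adjusted p = 0.00192 in edgeR). The call in SAL-sired libraries was lost without the libraries that held Xist (0.62, adjusted p = 0.0961) and when SAL-sired NAC 4 (0.65, adjusted p = 0.0523), SAL-sired VTA 1 (0.67, adjusted p = 0.0550) or SAL-sired VTA 5 (0.62, adjusted p = 0.0712) was left out of the edgeR fit, and that in MOR-sired libraries was lost without the libraries that held Xist (0.78, adjusted p = 0.106).

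The repulsive Unc5 receptors did not move as 1 group. Unc5b was higher in VTA, with log2 fold changes of 0.58 (SE 0.08, SAL-sired) and 0.72 (SE 0.08, MOR-sired), whereas Unc5a, Unc5c and Unc5d were lower. Unc5a ranged from 30.2 to 96.0 CPM in NAC and from 16.6 to 29.4 CPM in VTA, with log2 fold changes of -1.72 (SE 0.23, SAL-sired) and -1.81 (SE 0.23, MOR-sired) and no overlap. Unc5a was the netrin receptor with the highest mean level in NAC, and Unc5b (40.9 ± 3.75 CPM, SD, n = 10) in VTA. Unc5d, at 4.14 to 18.4 CPM in NAC and 4.12 to 7.89 CPM in VTA, gave -1.05 (SE 0.28) and -1.02 (SE 0.28), and Unc5c -0.38 (SE 0.13) and -0.32 (SE 0.13). The sum of the 5 netrin receptors was 128 ± 22.7 CPM in NAC and 92.9 ± 7.38 CPM in VTA, while that of the 2 netrins was 40.9 ± 10.9 and 106 ± 19.1 CPM.

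Among slits and roundabouts, Slit3 was the member with the clearest difference. It lay between 25.6 and 39.6 CPM in SAL-sired NAC (median 27.7) and between 19.4 and 32.9 CPM in MOR-sired NAC (median 26.8). In VTA it held 4.91, 5.62, 4.44, 3.90 and 4.51 CPM in SAL-sired and 4.58, 4.13, 4.74, 4.33 and 4.50 CPM in MOR-sired libraries. The regions were far apart, with a NAC level 6.75 times (95% interval 5.63 to 8.08) and 5.92 times (4.95 to 7.09) the VTA level. Slit1 was called in neither sire group (log2 fold change -0.44, SE 0.28, in SAL-sired and -0.25, SE 0.28, in MOR-sired libraries), nor was Slit2 (-0.03, SE 0.12, and -0.02, SE 0.12). Robo3, a divergent roundabout, was scarce in NAC (0.188 to 1.09 CPM) and held 1.10 to 3.64 CPM in VTA, and its log2 fold changes were 2.61 (SE 0.34) and 1.95 (SE 0.34). The highest NAC library and the lowest VTA library of Robo3 were nearly level. Robo2, the roundabout with the highest level in either region (36.0 to 60.8 CPM in NAC, 24.5 to 39.5 CPM in VTA), was lower in VTA, with -0.48 (SE 0.13) and -0.36 (SE 0.12). Robo1 was called in neither sire group, and the endothelial Robo4 in MOR-sired libraries only (0.49, SE 0.13, beside 0.31, SE 0.13, adjusted p = 0.0508 in SAL-sired).

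Of the 20 semaphorins, the family with the most genes, 8 were higher in VTA in both sire groups (23.9% of all genes were). Another 5 were lower (26.7% of all genes were) and 7 were not called in both. Their summed level was 532 ± 39.8 CPM in NAC (SD, n = 14) and 578 ± 38.2 CPM in VTA (n = 10). The sum was thus closer between regions than Sema3a, Sema6d or Sema4d. Some single members were also close, such as Sema4a and Sema4b, with VTA to NAC ratios of mean CPM of 1.06 and 0.965. The secreted Sema3a, a repellent that acts through Nrp1, lay between 3.48 and 8.84 CPM in NAC and between 0.517 and 1.53 CPM in VTA, with a NAC level 6.96 times (95% interval 4.39 to 11.1) and 6.74 times (4.25 to 10.7) the VTA level. Sema6d, a transmembrane semaphorin, stood at 33.5 to 49.6 CPM in NAC and at 66.8 to 101 CPM in VTA, with log2 fold changes of 1.11 (SE 0.09, SAL-sired) and 1.13 (SE 0.09, MOR-sired). Sema4d, whose receptor is Plxnb1, stood at 53.1 to 73.0 CPM in NAC and 95.9 to 141 CPM in VTA, with log2 fold changes of 0.75 (SE 0.09, SAL-sired) and 0.83 (SE 0.09, MOR-sired). None of these 3 genes overlapped between regions. Sema6b and Sema4f were lower in VTA, Sema6b at 69.3 to 94.3 CPM in NAC and 49.1 to 70.5 CPM in VTA (log2 fold change -0.56, SE 0.09, and -0.54, SE 0.09) and Sema4f at 42.0 to 47.9 and 24.8 to 38.4 CPM (-0.58, SE 0.08, and -0.62, SE 0.08). Sema7a, which is held by a lipid anchor and was among the highest members in both regions, was not called (-0.33, SE 0.15, and -0.29, SE 0.15). Sema3d was also higher in VTA, with log2 fold changes of 1.01 (SE 0.12, SAL-sired) and 1.11 (SE 0.12, MOR-sired).

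Among receptors of semaphorins, 2 of 2 neuropilins and 5 of 9 plexins were lower in VTA in both sire groups (26.7% of all genes were). Both neuropilins were called lower, Nrp2 with log2 fold changes of -1.15 (SE 0.32, SAL-sired) and -1.51 (SE 0.32, MOR-sired) and Nrp1 with -0.43 (SE 0.10) and -0.49 (SE 0.10). Of the 9 plexins, Plxna2, Plxna4, Plxnb2, Plxnc1 and Plxnd1 were lower, Plxna1, Plxna3 and Plxnb1 were not called in both sire groups, and the X-linked Plxnb3 was higher. Plxna2 lay between 32.4 and 64.9 CPM in NAC and between 10.4 and 16.6 CPM in VTA. Plxnd1, the receptor of Sema3e, lay between 15.2 and 32.0 CPM in NAC and between 5.16 and 8.04 CPM in VTA, and Sema3e itself was lower in VTA too (-0.99, SE 0.15, and -0.88, SE 0.15). Plxnb1, the receptor of Sema4d, was called in neither sire group (0.11, SE 0.06, and 0.03, SE 0.06). Plxnb3 had levels of 37.9, 38.6, 48.3, 46.4 and 37.5 CPM in SAL-sired and 41.5, 36.6, 43.2, 41.7 and 50.5 CPM in MOR-sired VTA, above the highest NAC library at 23.0 CPM. Its log2 fold changes were 1.59 (SE 0.12) and 1.32 (SE 0.12), and Plxnb3 is known from other work as a plexin of oligodendrocytes.

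**Figure D2:**
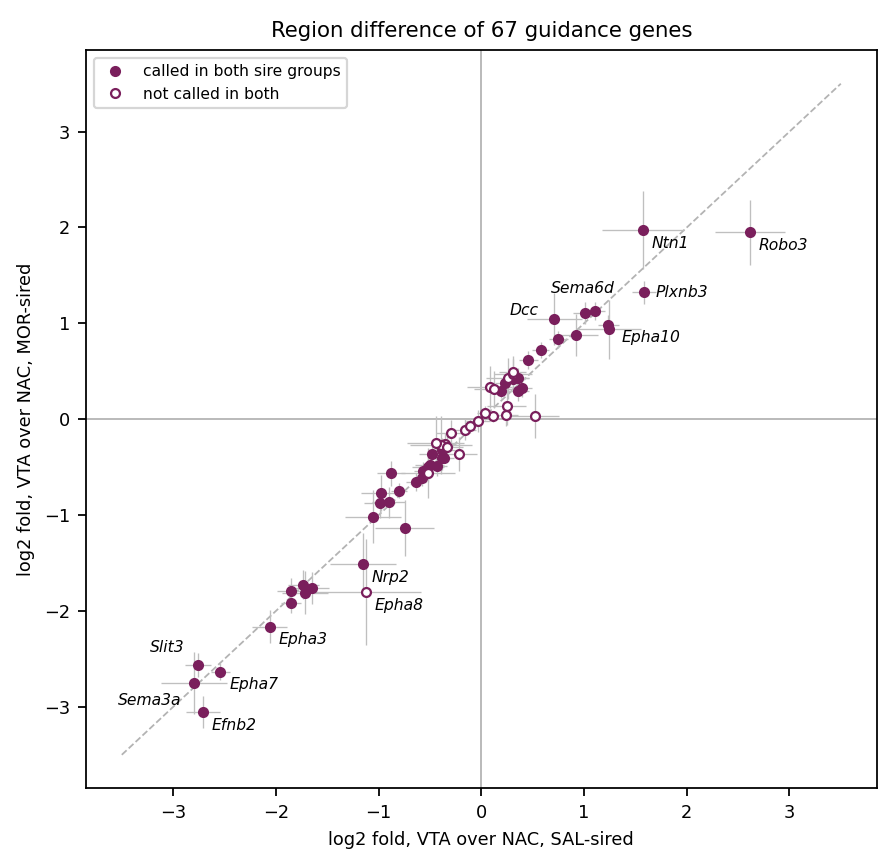
Log2 fold change of VTA over NAC for each of the 67 members in SAL-sired libraries (horizontal) and MOR-sired libraries (vertical), with SE as grey lines and the dashed line marking equality; filled points were called in both sire groups. Efnb2 lies at -2.71 and -3.05 and Ntn1 at 1.57 and 1.97; most points lie close to the dashed line, with Robo3 below it.

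The separation was visible without a model as well. In 25 members (37.3%) no NAC library overlapped any VTA library, beside 25.1% of all genes, with 10 of the 25 higher in VTA (12.3% of all genes) and 15 lower (12.8% of all genes). The other genes of the pathway were a list of 80 further ligands, receptors, adhesion molecules, adaptors and intracellular transducers. They gave 22 higher (27.5%) and 34 lower (42.5%) in SAL-sired libraries, beside 29.0% and 29.7% of all genes. In MOR-sired libraries they gave 24 higher (30.0%) and 30 lower (37.5%), beside 27.8% and 30.4%. Marker transcripts of several cell types also differed between the punches: the 11 oligodendrocyte markers summed to 8886 to 12726 CPM in NAC and 25407 to 36893 CPM in VTA, the 10 astrocyte markers to 3668 to 4282 and 5799 to 6984 CPM, the 15 cortical glutamatergic markers to 444 to 2345 and 128 to 351 CPM, and the 20 striatal markers to 1009 to 11269 and 432 to 570 CPM. None of these markers was at 0 in all libraries of a region, no member is on any of the lists, and the part of cell makeup in the region differences was not tested.

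Within the NAC the members varied with how striatal the punch was. The coefficient of variation over the 14 libraries had a median of 17.1% over the 64 members with a mean of at least 1 CPM, and it was largest for Epha8 (79.1%), Ntn1 (57.2%), Sema3f (46.0%), Dcc (39.7%) and Nrp2 (35.0%). A striatal score, the mean log2 CPM of 20 markers of medium spiny neurons (the projection neurons of the striatum), ran from 4.46 in MOR-sired NAC 2 to 8.21 in MOR-sired NAC 4. Across the 14 libraries 37 of the 66 members tested followed this score by Spearman's rho at an adjusted permutation p under 0.05, with adjustment over all genes kept. Of these, 13 rose with it (15.0% of all genes) and 24 fell (13.8% of all genes). The share of members that fell with the score was well above that of all genes, and the share that rose was nearer to it.

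Ntn1 followed the striatal score most closely, with r = 0.994 and rho = 0.996 (permutation p = 1e-05 for each, the smallest that 100000 permutations can give, adjusted p = 0.000346 and 0.00027). Its lowest levels, 6.87, 7.39 and 9.54 CPM, were those of MOR-sired NAC 2, 7 and 3, which had the lowest striatal scores, and its highest, 46.8 and 45.1 CPM, those of MOR-sired NAC 4 and SAL-sired NAC 3, which had the highest. With MOR-sired NAC 2 and 7 left out, whose scores were the most distant from the median, r came to 0.992, and within the sire groups it was 0.987 (SAL-sired) and 0.995 (MOR-sired). Its receptor Dcc had r = 0.958 and rho = 0.952 (adjusted permutation p = 0.000346 and 0.00027), with 0.957 without those 2 libraries, 0.936 within SAL-sired and 0.959 within MOR-sired NAC. Ntn1 and Dcc, a ligand and its attractive receptor, thus rose and fell together with the medium spiny neuron markers, over a 6.81-fold range for Ntn1.

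All 4 Unc5 receptors went the other way by rho, though by r Unc5b did not pass (r = -0.567, adjusted permutation p = 0.093). Unc5a had r = -0.785 and rho = -0.855 (permutation p = 6e-04 and 2e-04, adjusted p = 0.00542 and 0.00205), Unc5d rho = -0.802, Unc5b rho = -0.679 and Unc5c rho = -0.662, and Ntn4 rho = -0.727. Among the other ligands and receptors that rose with the score were Sema3f (rho = 0.974), Plxna2 (rho = 0.943), Robo1 (rho = 0.938), Epha8 (rho = 0.938), Epha4 (rho = 0.916), Ephb1 (rho = 0.881), Efnb2 (rho = 0.824), Slit3 (rho = 0.811), Sema3e (rho = 0.767), Efnb3 (rho = 0.732) and Plxnd1 (rho = 0.666). Those with the strongest fall were Ephb3 (r = -0.827, rho = -0.952), Sema3a (r = -0.855, rho = -0.881), Slit1 (r = -0.727, rho = -0.877) and Plxna1 (r = -0.719, rho = -0.873), each with an adjusted permutation p of rho at or below 0.00166. Several families held called members of both signs. Examples were Ntn1 against Ntn4, Dcc against Unc5a to Unc5d, and Slit3 against Slit1. Others were Plxna2 and Plxnd1 against Plxna1 and Plxna3, and Efnb2 and Efnb3 against Efnb1. Called members had 1 sign only among ephrin-A ligands (0 rose, 2 fell), neuropilins (0 and 1) and roundabouts (1 and 0). Semaphorins had 2 that rose and 8 that fell. These groupings were made after the values were seen, and such splits were not counted over all genes.

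**Figure D3:**
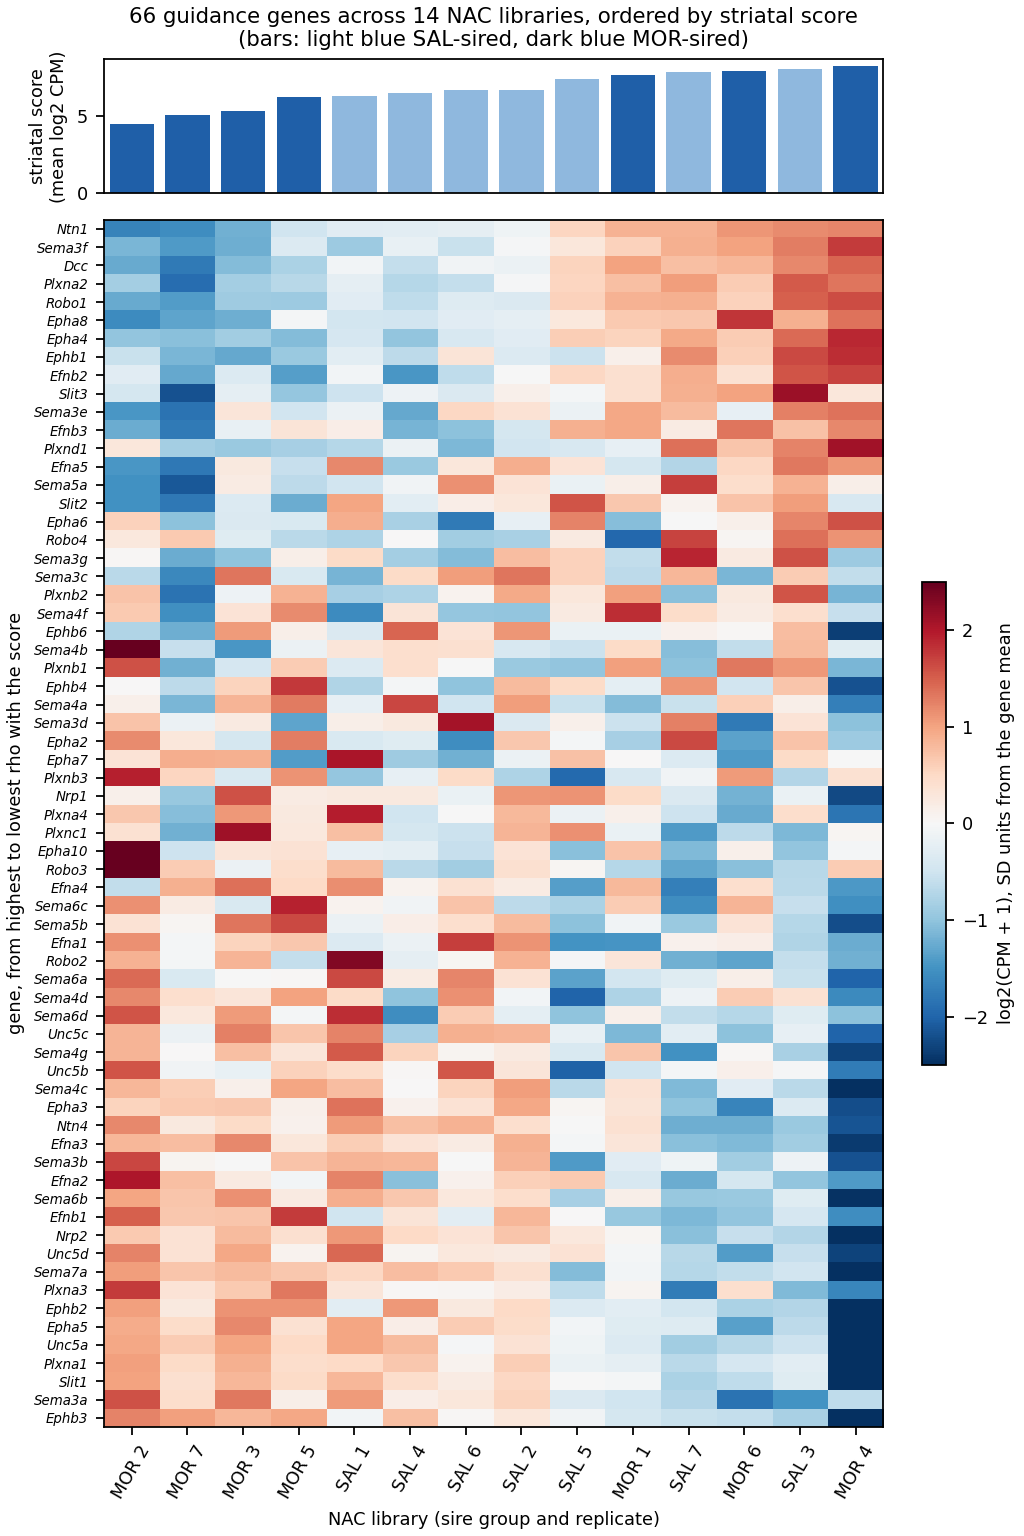
Each row is 1 of the 66 members tested in NAC and each column 1 of the 14 NAC libraries, ordered by striatal score (bars above, mean log2 CPM; light SAL-sired, dark MOR-sired); colour is log2(CPM + 1) in SD units from the gene's mean. Ntn1, Sema3f and Dcc turn from blue to red from MOR 2 to MOR 4, and Ephb3, Sema3a and Slit1 turn from red to blue.

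Slit1 fell from 83.7 CPM in MOR-sired NAC 2, the library with the lowest score, to 14.9 CPM in MOR-sired NAC 4, the library with the highest. That last library also held the lowest level of Epha5 (19.6 CPM), Unc5a (30.2 CPM) and Efna3 (26.1 CPM), and without it 13 members rose and 17 fell, with Slit1 at rho = -0.846. All 37 members had the same sign of r within both sire groups. All 37 had the opposite sign with a cortical glutamatergic score, which itself ran against the striatal score (r = -0.79 over the 14 libraries). The 37 were picked by rho over these same libraries, so neither count is separate support. Neither was taken over all genes called. With 7 libraries in a sire group, fewer reached the threshold: 0 within SAL-sired NAC, and 1 that rose and 2 that fell within MOR-sired NAC. The share of all genes was not taken without MOR-sired NAC 4 or within a sire group. Counts under those settings are therefore not read as a result about the members. Against the cortical score with its sign turned, Plxna1 had rho = -0.960, Sema3a -0.934, Ephb3 -0.930, Slit1 -0.925 and Unc5a -0.912, and Dcc had 0.934 and Ntn1 0.916 (adjusted permutation p at or below 0.000786 for each). The striatal score had a wider range in MOR-sired (4.46 to 8.21) than in SAL-sired NAC (6.26 to 7.96).

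In the VTA 1 member followed the matching score for dopamine neurons, the mean log2 CPM of 14 markers. Ntn1 had r = 0.994 and rho = 1.00 (permutation p = 1e-05 for each, adjusted p = 0.00463 and 0.0125 over all genes kept), so on this scaled log2 CPM the order of the 10 libraries by Ntn1 was their order by score. It was the only member called of 67, where 0.316% of all genes were called positive and 0.0301% negative. With SAL-sired VTA 3 and 5 left out, whose scores lay farthest from the median, r was 0.991, and without the libraries that held Xist it was 0.995. With those 8 and 6 libraries, respectively, the adjusted permutation p of rho was 0.332 and 0.366 at the same rho of 1.00. Slit1 (r = 0.960, rho = 0.939, adjusted permutation p = 0.00766 and 0.0627), Robo2 (r = 0.901, rho = 0.903, 0.0371 and 0.108), Epha4 (r = 0.924, rho = 0.879, 0.0102 and 0.140) and Sema6d (r = 0.924, rho = 0.867, 0.0212 and 0.157) passed by r but not by rho. The share of all genes passing by r was not taken, so these passes are not read as a result about the members. Dcc had r = 0.886 and rho = 0.842 (adjusted permutation p = 0.0513 and 0.197). The 5 lowest values were those of Efnb2 (rho = -0.733), Ephb1 (-0.721), Unc5d (-0.709), Sema3c (-0.648) and Nrp1 (-0.648), none of which passed. Without the libraries that held Xist, Efnb2 had rho = -0.143, Ephb1 -0.200 and Dcc 0.486. Without those libraries r was -0.757 for Unc5d, -0.882 for Sema3c and -0.636 for Nrp1. Over all 10 libraries r was -0.696, -0.840 and -0.694, which did not pass either. Slit1 thus had a value of opposite sign in each region, falling with the striatal score in NAC and with a positive r in VTA.

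**Figure D4:**
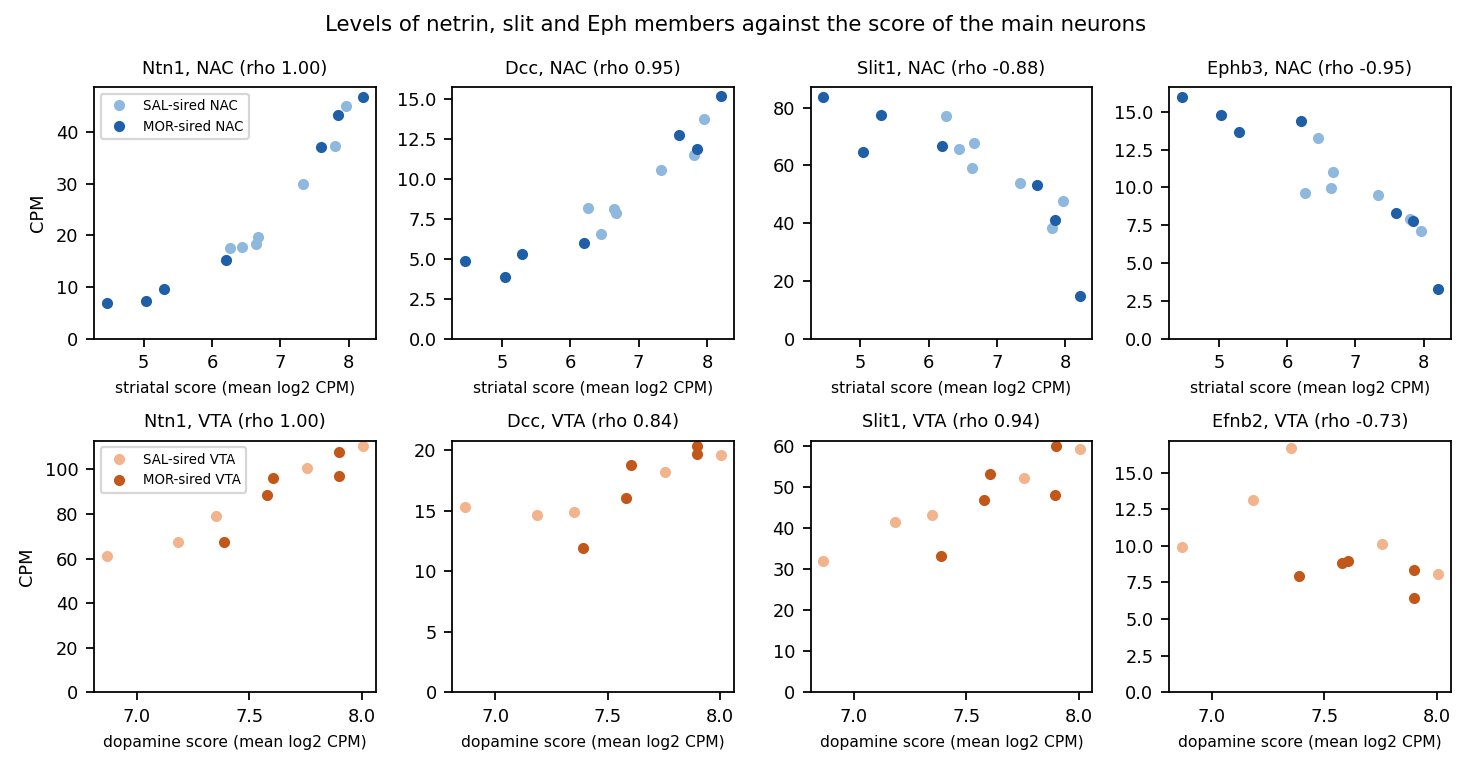
Level in CPM of single members against the striatal score in the 14 NAC libraries (upper row) and the dopamine score in the 10 VTA libraries (lower row), each point 1 library coloured by sire group. Ntn1 climbs with the score in both regions, from 6.87 to 46.8 CPM in NAC and from 61.3 to 110 CPM in VTA, while Ephb3 and Slit1 fall in NAC.

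The study asked whether the father's morphine exposure left a difference in the offspring's brain, and in NAC no member passed. Of the 66 members tested (Epha1 was too low), 0 were called in edgeR's quasi-likelihood test, beside 0% of all 18220 genes, and the smallest adjusted p of a member was 0.621. At an unadjusted p under 0.05 there were 7 members (10.6%, beside 6.18% of all genes), 2 higher in MOR-sired libraries (4.39% of all genes) and 5 lower (1.79% of all genes). DESeq2 and limma-voom called 0 members too. Plxnb3 had the smallest p: it held 11.8, 12.4, 12.5, 14.1, 9.42, 16.5 and 14.5 CPM in SAL-sired and 13.5, 23.0, 13.6, 16.2, 19.2, 18.9 and 16.8 CPM in MOR-sired NAC, which overlap. Its log2 fold change was 0.39 (SE 0.13, adjusted p = 0.621 in edgeR). Epha10 had 0.24 (SE 0.10), with its highest level, 23.0 CPM, in MOR-sired NAC 2, and 0.14 without that library.

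The other NAC members of smallest p had values below 0. Slit2, a ligand of roundabouts, had a log2 fold change of -0.26 (SE 0.10), Sema3c -0.32 (SE 0.14), Sema3g -0.22 (SE 0.10), Sema3d -0.26 (SE 0.12), the transmembrane Sema5a -0.20 (SE 0.09) and the kinase-inactive receptor Ephb6 -0.27 (SE 0.14). None of them passed, with adjusted p from 0.712 to 0.830 in edgeR. Over the 66 members 42 had a log2 fold change below 0 (50.5% of all genes did), with a median of -0.04 beside -0.00 over all genes. Ntn1 and Dcc had -0.18 (SE 0.45) and -0.17 (SE 0.30), and with the striatal score as a covariate their values were 0.022 and 0.016. Leaving out single NAC libraries moved Ntn1 between -0.43 (without MOR-sired NAC 4) and -0.010 (without SAL-sired NAC 3), and Dcc between -0.37 (without MOR-sired NAC 4) and -0.053 (without MOR-sired NAC 7). Values also moved by over 1.5 times without any 1 of MOR-sired NAC 1, 2, 3, 5 and 6 for either gene, and for Ntn1 without SAL-sired NAC 7 or MOR-sired NAC 7 and for Dcc without SAL-sired NAC 3. The 95% interval lay inside a 2-fold change in either direction for 63 of the 66 members, while Epha8, Ntn1 and Robo3 reached past it.

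Counts at an unadjusted p moved with single NAC libraries. They were 4 without MOR-sired NAC 1, 2, 5 or 7 or SAL-sired NAC 2 or 6, 3 without SAL-sired NAC 3 or 5, and 2 without SAL-sired NAC 7. The striatal score as a covariate gave 13, the library number (1 to 8 or 9 to 14) as a covariate 3 and scaling by library totals alone 4. The share of all genes was not taken under these settings, so these counts are not read as a result about the members. The 20 striatal markers summed to 2555 to 8583 CPM in SAL-sired and 1009 to 11269 CPM in MOR-sired NAC, and the 15 cortical markers to 1111 to 2067 and 444 to 2345 CPM. No setting among these called a member.

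In VTA no member passed either. Of 67 members tested 0 were called in edgeR's test, beside 0% of all 19923 genes, with a smallest adjusted p of 0.869, and DESeq2 and limma-voom called 0 members. At an unadjusted p under 0.05 there were 5 (7.46%, beside 5.31% of all genes), all lower in MOR-sired libraries (2.56% of all genes), and none higher (2.75% of all genes). Epha5, an ephrin-A receptor, was the 1 member whose sire groups did not overlap in VTA (1.23% of all genes). It held 57.1, 52.9, 51.7, 63.2 and 54.5 CPM in SAL-sired and 47.6, 35.0, 50.8, 45.3 and 49.7 CPM in MOR-sired libraries, a gap of less than 1 CPM between the nearest libraries. Its log2 fold change was -0.21 (SE 0.07, adjusted p = 0.869 in edgeR), and -0.30 without the libraries that held Xist (adjusted p = 0.753). That last fit kept only MOR-sired VTA 1 and 2 on the morphine side. In NAC the sire groups of no member were apart (0.0823% of all genes), and Epha5 there had a log2 fold change of -0.09.

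The other VTA members of small p were again below 0. Nrp2 had a log2 fold change of -0.51 (SE 0.21), Efnb2 -0.43 (SE 0.18), Plxna4 -0.15 (SE 0.06), Sema3c -0.48 (SE 0.21), Sema3b -0.57 (SE 0.27), Slit2 -0.26 (SE 0.13) and Epha7 -0.15 (SE 0.08), with adjusted p from 0.928 to 0.953 in edgeR. Efnb2 held 8.07 to 16.7 CPM in SAL-sired and 6.47 to 8.97 CPM in MOR-sired VTA, so the groups overlapped. Several of these values moved by over 1.5 times without 1 SAL-sired library: Efnb2 to -0.26 without VTA 2, Sema3c to -0.29 and Slit2 to -0.17 without VTA 3, and Nrp2 to -0.31 and Epha7 to -0.093 without VTA 4. Without the libraries that held Xist, Slit2 had -0.45 and Epha7 -0.26, and with the dopamine score as a covariate Sema3c had -0.20 and Slit2 -0.14. Sema3b had -0.26 without SAL-sired VTA 1, which held 18.6 CPM of it, the highest of all VTA libraries, and also 14.9 CPM of the fibroblast collagen Col1a1. Slit2 and Sema3c were among the 23 of the 66 members tested in both regions with values below 0 in both. Another 14 were above 0 in both and 29 were of opposite sign. These counts were not taken over all genes, so no shared direction is read from them. Within VTA 34 of the 67 members were below 0, beside 52.6% of all genes. Dcc and Ntn1 had 0.15 (SE 0.13) and 0.20 (SE 0.17), and Dcc had -0.017 without the libraries that held Xist. Without single libraries Dcc had 0.072 (MOR-sired VTA 4), 0.23 (MOR-sired VTA 2) and 0.23 (SAL-sired VTA 5), and Ntn1 had 0.099 (SAL-sired VTA 3), 0.13 (SAL-sired VTA 4) and 0.33 (SAL-sired VTA 5). With the dopamine score as a covariate they had 0.019 (Dcc) and 0.030 (Ntn1). Intervals lay inside a 2-fold change for 66 of 67 members, with Sema3b reaching past it.

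**Figure D5:**
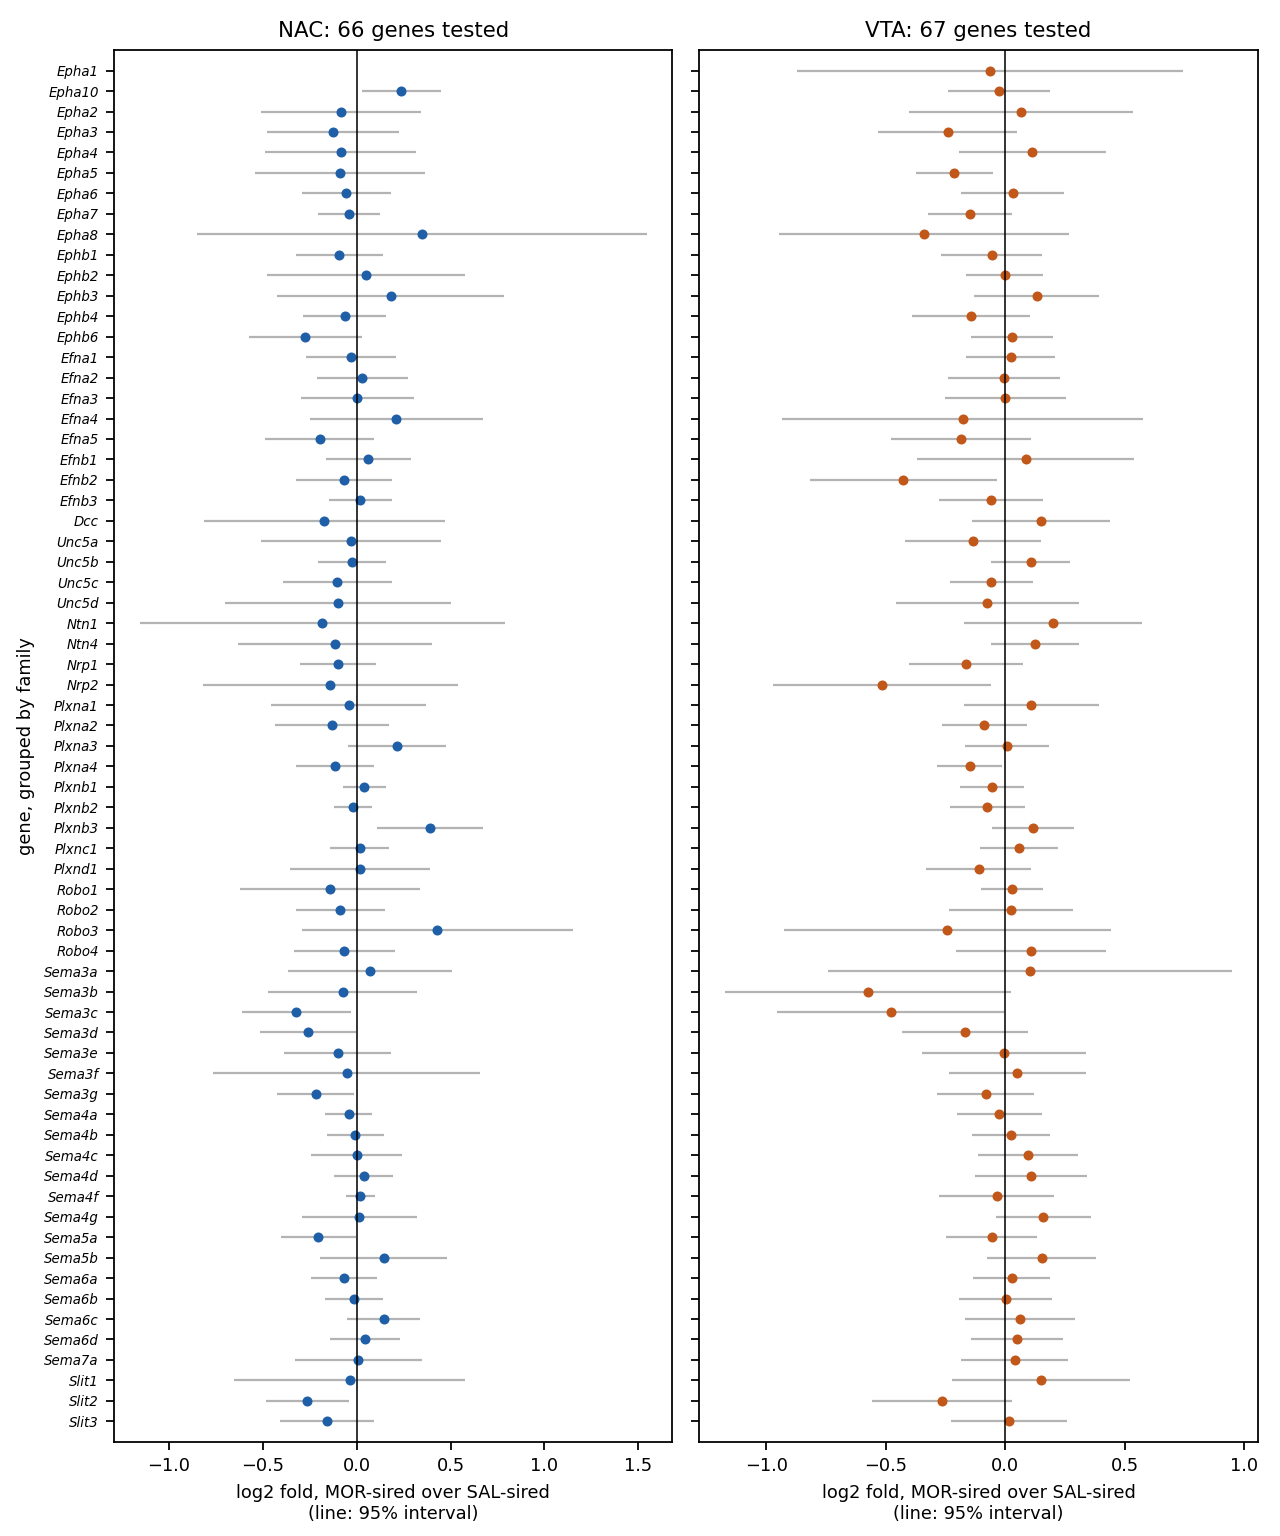
Log2 fold change of MOR-sired over SAL-sired libraries with its 95% interval for each member, grouped by family, in NAC (left, 66 genes) and VTA (right, 67 genes). Points lie between -0.32 and 0.43 in NAC and between -0.57 and 0.20 in VTA, and none passed the test after adjustment over all genes.

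The count at an unadjusted p in VTA was 9 without the libraries that held Xist and 8 without SAL-sired VTA 5. It was 3 without MOR-sired VTA 3 or with the dopamine score as a covariate. It was 2 without MOR-sired VTA 1 or SAL-sired VTA 2 or 4 and in limma-voom, and 1 without MOR-sired VTA 4. Here too the share of all genes was not taken, so these counts are not read as a result about the members. Markers of serotonin neurons, a list of 5 genes, summed to 60.5 to 166 CPM in SAL-sired and 155 to 341 CPM in MOR-sired VTA, and the 14 dopamine markers to 4127 to 9171 and 4780 to 8346 CPM. Their part in the sire values of the members was not tested beyond the dopamine covariate.

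Whether the sire effect differed between the regions was tested in 1 fit of all 24 libraries. This gave 0 calls among the 67 members (0% of all 20603 genes) in edgeR and 0 at an unadjusted p under 0.05, where 4.78% of all genes had one (2.05% higher and 2.72% lower). The difference was below 0 for 27 of the 67 members, beside 50.7% of all genes. The members of smallest p were Epha10 (VTA minus NAC -0.25, SE 0.15), Ephb6 (0.31, SE 0.19), Efnb2 (-0.34, SE 0.21) and Plxnb3 (-0.26, SE 0.17), each with an adjusted p of 1.00. Among the 80 other genes of the pathway, sire differences gave 0 calls in either region as well. At an unadjusted p under 0.05 there were 3 in NAC (3.75%, beside 6.18% of all genes) and 6 in VTA (7.5%, beside 5.31%). Those of smallest p were Fzd3, a Wnt receptor with a role in axon tracts, in NAC (-0.34, SE 0.10, adjusted p = 0.589 in edgeR) and Ngef, the guanine nucleotide exchange factor ephexin that acts below EphA receptors, in VTA (-0.63, SE 0.19, adjusted p = 0.793).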

How the data were processed

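Per the submitters' processing notes, the authors used Trim Galore, kallisto and DESeq2, with no versions. Each region has 1 deposited table of estimated counts, which, judged by how the tables are named, the authors scaled from TPM to each library's total. The aligner settings, genome build, annotation and strand setting are, in the sources used here, not given.

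The estimated counts were rounded. Sire effects were fitted per region and region differences over all 24 libraries (4 group means), with filterByExpr, TMM factors and edgeR's quasi-likelihood test (edgeR 4.0.16, limma 3.58.1, R 4.3.3), two-sided, with Benjamini-Hochberg adjustment over all genes kept; SE is the log2 fold change over the square root of F. A joint fit was possible because both tables carry a scaling by library only. DESeq2 1.42.0 and limma-voom were alternatives. Library levels are plain CPM. Correlations used TMM-scaled log2 CPM (prior count 2) and 100000 two-sided permutations, with adjustment over all genes kept; percentages of all genes leave out the score's own genes (18200 left in NAC, 19909 in VTA), and an adjustment over the members, planned at first, was not used. All 67 symbols matched RefSeq (GRCr8), from which the promoters come. No pair of libraries was identical.

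The members and lists were chosen with earlier results of these data known. Named members were, by rule, the 8 of smallest p for each sire effect, the 4 for its difference between regions, the 8 called with the largest change in each direction between regions, the 5 highest and 5 lowest rho, and Dcc and Ntn1 throughout; the level of any member could be given. Further members named in the correlations and region differences complete their families' counts and were chosen after their values were seen. Scripts were tested on simulated data. Alternatives covered scaling, filters, tests, covariates, single libraries, the libraries with Xist above 10 CPM and the replicate number.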

Additional observations from a re-analysis of the deposited data

Results flagged for a closer look

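In groups of 5 or 7 libraries, 11 levels stood apart from the rest of their group by Dixon's test at its 95% level, out of 256 groups of member levels examined; chance alone gives about 1 in 20. In NAC these were Epha10 in MOR-sired NAC 2 (23.0 CPM, next 16.7), Sema4b in the same library (22.8 CPM, next 18.7), Sema4c and Sema4g in MOR-sired NAC 4 (lowest, 9.86 and 15.7 CPM), Sema3c in MOR-sired NAC 3 (highest, 12.3 CPM), and Sema3c (lowest, 7.40 CPM) and Unc5d (highest, 18.4 CPM) in SAL-sired NAC 1. MOR-sired NAC 2 and 4 were also the libraries with the lowest and the highest striatal score. In VTA they were Epha4 in MOR-sired VTA 2 (lowest, 23.0 CPM, next 30.0), Nrp1 in MOR-sired VTA 5 (8.98 CPM), Plxnb1 in SAL-sired VTA 3 (63.6 CPM) and Sema3f in SAL-sired VTA 4 (11.8 CPM). The number flagged is below what chance gives over that many groups.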

How the results depend on the processing

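Region counts stayed within 1.5 times under the alternatives run: leaving out single libraries gave 16 to 22 members higher and 28 to 33 lower in VTA in SAL-sired, and 19 to 21 and 27 to 31 in MOR-sired libraries. Over all genes, the sire effect in NAC had 4 calls with DESeq2 and 52 with limma-voom with quality weights, that in VTA 30 with DESeq2, and its difference between regions 7 without the libraries that held Xist; none was a member, and leaving out single libraries gave 0 calls of the sire effect in either region. In the relation to the striatal score, 0 members rose and 0 fell within SAL-sired NAC, and 1 and 2 within MOR-sired NAC. Each group had 7 libraries, and no share of all genes was taken. In VTA the positive relation of Ntn1 gave 0 calls without the 2 farthest libraries and 0 without those that held Xist, with fewer libraries. The sign turned for Ntn1 (0.022) and Dcc (0.016) in NAC with the striatal score as a covariate and for Dcc in VTA without the Xist libraries (-0.017); the cause was not tested. Replicate numbers showed no clear pairing of the libraries. Deviations of same-numbered libraries correlated between -0.26 and 0.0964 in NAC and between -0.128 and 0.132 in VTA. Between the regions they correlated between -0.0311 and 0.0977. Differences in makeup between punches could mask a shared litter or batch, so this check cannot decide whether libraries were paired. With the replicate block the sire effect gave 0 called members in either region. At an unadjusted p under 0.05 it gave 4 (NAC) and 1 (VTA), with no share of all genes taken. The same block, added after seeing the data as was leaving out MOR-sired NAC 4 from the correlations, gave 15 higher and 34 lower members in SAL-sired and 15 and 25 in MOR-sired libraries between regions, and Epha8 lost its call (-1.07, adjusted p = 0.203 in edgeR). Precision is limited by 5 to 7 libraries a group: the 95% interval of a sire effect had a median half-width of 1.21-fold in NAC and 1.18-fold in VTA. Estimated counts carry no counting interval.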
